A study of Mus musculus with 12 samples.

Results

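The 10 genes grouped here as secondary granule genes of immature neutrophils are Ltf, Camp, Ngp, Lcn2, Cd177, Chil3, Ifitm6, Olfm4, Hp and Anxa1. They were read by symbol from the deposited count and TPM tables of mouse bone marrow. All 10 were found among the 53801 genes of each table. Marrow RNA of C57BL/6N mice was sequenced in 12 libraries of 4 groups, with 3 libraries in each. MI-E mice had an infarction and received EMPA (spelled as in the labels), MI mice had an infarction without it, Sham-E mice had a sham operation and received EMPA, and Sham mice had the sham operation alone. Infarction was made by tying the left anterior descending coronary artery (LAD). The sources used here do not give what the sham operation left out, the dose and length of treatment, the time of sampling, or the mice's age and sex. Libraries are named by group and by the number in their column name. Whether the 3 libraries of a group came from 3 mice is not stated in the labels, so p-values measure the spread between libraries, which may be technical.

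Neutrophils fill their granules in sequence as they mature in the marrow. Primary granules form in promyelocytes, secondary (specific) granules in myelocytes and metamyelocytes, and gelatinase granules later. The factor C/EBPε is required for the secondary granule programme, and its loss in mice removes these proteins. Several of these transcripts are abundant in the marrow, and many granule transcripts are low again in the mature cell. Ltf encodes lactoferrin, which binds iron, and Camp encodes the precursor of the cathelicidin peptide CRAMP, which damages bacterial membranes. Ngp, the neutrophilic granule protein, is related to cystatins and cathelicidins. Lcn2 encodes lipocalin-2, which captures bacterial siderophores, and Cd177 encodes a surface protein that also sits on specific granule membranes. Olfm4 encodes olfactomedin 4, present in a subset of neutrophils, and Hp encodes haptoglobin, which binds free haemoglobin. Chil3 encodes the chitinase-like protein Ym1, Ifitm6 belongs to the interferon-induced transmembrane family, and Anxa1 encodes annexin A1, which limits inflammation. Chil3, Ifitm6, Hp and Anxa1 are also expressed by monocytes and their precursors in mice.

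On mm10, with positions from GENCODE M21, 3 of the genes lie on chromosome 9: Camp from 109847379 to 109849617, Ngp from 110419747 to 110423012 and Ltf from 111019271 to 111042767. Camp and Ngp have 1 annotated transcript of 4 exons each, while Ltf has 12 transcripts, the longest with 17 exons. Cd177 and Ifitm6 lie on chromosome 7, from 24743983 to 24760311 and from 141015699 to 141017924. Lcn2 lies on chromosome 2 from 32384633 to 32388252, Chil3 on chromosome 3 from 106147554 to 106167564 and Hp on chromosome 8 from 109575128 to 109579172. Olfm4 lies on chromosome 14 from 79984081 to 80023139, and shares 153 exon bases with the long noncoding RNA Gm6999. Anxa1 lies on chromosome 19 from 20373428 to 20390944. Chil4, the near copy of Chil3, held 0 to 2 counts per library, which is 0.000246% of the counts of Chil3.

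RefSeq promoter sequences (GRCm38.p6) were found for 9 of the 10 genes, all but Hp. They were searched over the 250 bases before the start, on both strands, for TTGCNNAA, a core that C/EBP factors bind, and for GAGGAA, a core that the myeloid factor PU.1 binds. TTGCNNAA was present in 4 of the 9 (Ltf, Ngp, Lcn2 and Anxa1), against 9.56% of 32851 promoters, and Ngp held 2 matches. GAGGAA was present in 5 of the 9 (Ltf, Lcn2, Cd177, Olfm4 and Anxa1), against 23.3%. These matches describe letters and are not measured binding. Of these, 5 sequences are shown 5′ to 3′, up to the first annotated GENCODE start. They are the 3 chromosome 9 genes, and Cd177 and Chil3, whose levels differed more between MI and Sham. The windows of Lcn2, Ifitm6, Olfm4 and Anxa1 lie wholly inside the gene as GENCODE draws it, with any matches they hold, and are not shown. Capitals mark TTGCNNAA or GAGGAA on either strand.
Ltf (chr9:111019042-111019270, plus strand): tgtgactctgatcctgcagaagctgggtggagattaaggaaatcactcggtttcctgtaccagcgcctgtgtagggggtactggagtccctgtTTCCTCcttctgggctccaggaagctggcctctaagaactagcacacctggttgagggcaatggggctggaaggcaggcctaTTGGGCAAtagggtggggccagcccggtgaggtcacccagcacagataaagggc
Ngp (chr9:110419558-110419746, plus strand): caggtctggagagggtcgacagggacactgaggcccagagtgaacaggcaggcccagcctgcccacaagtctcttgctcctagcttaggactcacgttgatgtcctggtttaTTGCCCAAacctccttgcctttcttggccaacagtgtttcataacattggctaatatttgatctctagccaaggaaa
Camp (chr9:109849618-109849706, minus strand): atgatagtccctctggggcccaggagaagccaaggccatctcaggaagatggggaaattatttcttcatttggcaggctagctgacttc
Cd177 (chr7:24760312-24760561, minus strand): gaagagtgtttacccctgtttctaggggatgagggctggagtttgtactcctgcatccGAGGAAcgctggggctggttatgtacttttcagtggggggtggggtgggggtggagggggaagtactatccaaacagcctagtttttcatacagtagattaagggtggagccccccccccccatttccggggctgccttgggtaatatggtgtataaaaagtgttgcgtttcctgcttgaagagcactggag
Chil3 (chr3:106167565-106167814, minus strand): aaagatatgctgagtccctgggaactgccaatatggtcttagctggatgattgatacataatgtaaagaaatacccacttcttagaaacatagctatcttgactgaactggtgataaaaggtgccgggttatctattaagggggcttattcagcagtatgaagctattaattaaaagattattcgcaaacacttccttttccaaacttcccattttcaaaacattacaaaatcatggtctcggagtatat
In Ltf the TTGCNNAA match lies on the minus strand 75 bases before the RefSeq start (position -75), and in Ngp a match lies on the plus strand at position -138. The other match of Ngp, at position -11, falls inside the first exon as GENCODE draws it and is not shown. Camp and Chil3 have neither motif in this window.

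Libraries held 21175087 to 24606783 counts, and 15119 genes passed the filter on low counts, all 10 members among them. Their own counts ran from 2138 for Olfm4 to 308121 for Ngp. Sham-E 1 stood apart in its group. Its mean level of the 10 genes (log2 CPM, each gene centred on its mean over 12 libraries) was 0.58, against -0.23 and -0.62 in Sham-E 2 and Sham-E 3. Summed early granulocyte markers were 9751 CPM in Sham-E 1, against 3959 and 2962 in the other two, and summed B-lineage markers were 994, against 2629.8 and 2616. MI 3 also differed within its group: its centred member level was 0.06, against 0.66 and 0.57 in MI 1 and MI 2, and its summed mature neutrophil markers were 19639.9 CPM, against 33843 and 34423. Summed erythroid markers were highest of the 12 libraries in MI 3 (47466 CPM, against 17812 and 13736 in MI 1 and MI 2). They were lowest in Sham-E 1 (6948 CPM, against 17825 and 32592 in Sham-E 2 and Sham-E 3). Summed macrophage markers were 1261 CPM in MI 3, against 646 and 613 in MI 1 and MI 2. The part of these cells in the members' levels was not tested. The mean insert length recovered from counts and TPM was 279.2 to 281.7 bp in MI-E, 262.3 to 264.2 bp in MI, 270.1 to 279.3 bp in Sham-E and 283.1 to 285.9 bp in Sham. Only MI-E and Sham-E overlap in it among the comparisons made, so group and insert length cannot be told apart in the others.

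The 10 genes together made up a large part of the marrow's RNA. On the TPM scale, which corrects for transcript length, they held 3.56, 3.63 and 3.22% in MI-E, 5.37, 4.99 and 3.46% in MI, 5.16, 3.65 and 2.6% in Sham-E, and 3.05, 3.01 and 2.57% in Sham. The MI-E and Sham libraries were more even than those of MI and Sham-E, and every MI-E and MI library lay above every Sham library. The group means were 3.47 ± 0.22% in MI-E, 4.6 ± 1.01% in MI, 3.8 ± 1.29% in Sham-E and 2.88 ± 0.265% in Sham (SD, n = 3 each). In these bulk samples more cells of a type and more RNA per cell cannot be told apart.

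**Figure D1:**
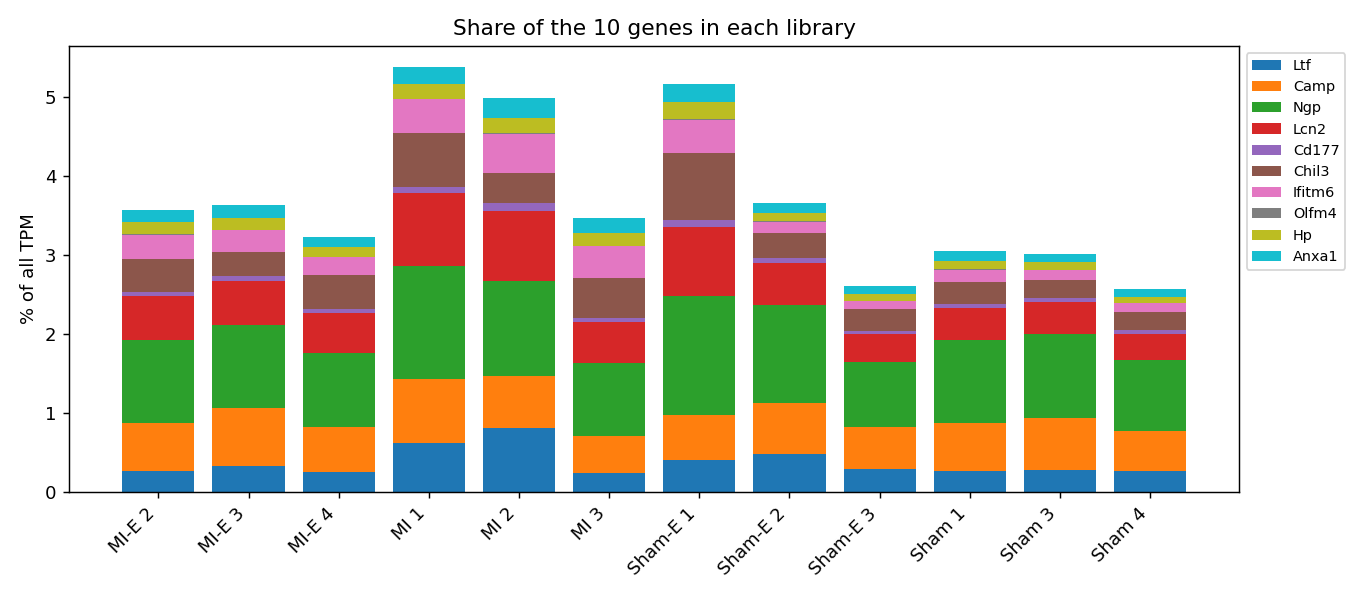
Share of all TPM (%, stacked bars) held by each of the 10 secondary granule genes in each of the 12 libraries. Ngp is the largest layer throughout; the bars of MI 1, MI 2 and Sham-E 1 reach 5.37, 4.99 and 5.16%, and those of Sham 2.57 to 3.05%.

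Per length, Ngp was the most abundant member, with a mean of 10969 TPM over the 12 libraries and a rank of 3 to 6 among all genes of a library. Camp followed with 6155 TPM (rank 9 to 17), then Lcn2 with 5690.2 TPM (rank 6 to 24), Chil3 with 4086, Ltf with 3719.5 and Ifitm6 with 2644 TPM. Anxa1 (1589.7 TPM) and Hp (1352 TPM) were lower, Cd177 had 616 TPM, and Olfm4 was the least abundant at 65.7 TPM. The members also differed in how far they ranged. The highest library exceeded the lowest by 5.51-fold in CPM for Ifitm6 and by 4.03-fold for Chil3, but by 2-fold for Ngp and 1.87-fold for Camp. The highest library was an MI library for 8 members and Sham-E 1 for Chil3 and Hp. The lowest was a Sham library for Camp, Lcn2, Chil3, Hp and Anxa1, Sham-E 3 for Ngp, Cd177, Ifitm6 and Olfm4, and MI 3 for Ltf.

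MI was compared with Sham to ask what infarction changed. All 10 members had a positive log2 fold change on counts and on TPM, as 52.4% of all genes tested had on counts. Their median was 0.95, against 0.02 over all genes. None passed the threshold (0 of 10, edgeR quasi-likelihood test with Benjamini-Hochberg adjustment over all genes), where 0.417% of all genes passed. At an unadjusted p under 0.05 there were 7 members, against 19.5% of all genes. DESeq2 called 5 members (Lcn2, Chil3, Ifitm6, Hp and Anxa1) and 1066 of the 15119 genes. On log2(TPM + 1) limma called 0 members and 282 genes, and on log2(TPM + 0.1) 1 and 269. In 7 members (Lcn2, Cd177, Chil3, Ifitm6, Olfm4, Hp and Anxa1) every MI library lay above every Sham library, as in 13.4% of all genes. Without MI 3 this held for all 10 members, against 21.5% of all genes. Mitochondrial transcripts also set these groups apart, with 2.41, 3.58 and 2.23% of counts in MI, against 1.67, 1.49 and 1.49% in Sham. The other libraries held 1.33 to 1.86% in MI-E and 1.37 to 1.87% in Sham-E, so MI lay above all of them. Its part in the members' levels was not tested. Calls depended on which libraries set the spread. Without Sham-E 1, which is in neither group but enters the shared estimate of the spread, 5 members and 1224 genes passed. Without Sham-E 3, 1 member (Ifitm6) and 122 genes passed. In a fit to MI and Sham alone 4 members and 344 genes passed. With any other library left out, no member passed.

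Ifitm6 differed most. It had 1604, 1685 and 1449.7 CPM in MI, against 472, 405 and 354 CPM in Sham. The lowest MI library was far above the highest Sham library. The log2 fold change was 1.95 ± 0.44 (SE), a 3.85-fold higher level in MI (edgeR adjusted p = 0.063). With 1 library left out, the edgeR adjusted p ran from 0.00048 (without Sham-E 1) to 0.26 (without Sham 4). Its mean in MI-E was 975 ± 145 CPM and in Sham-E 703 ± 577 CPM (SD, n = 3 each). Within Sham-E it stood at 1365 CPM in Sham-E 1, and at 438 and 306 CPM in Sham-E 2 and Sham-E 3.

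Lcn2 had 5626, 5015 and 3065 CPM in MI, against 2020.3, 2098 and 1717 CPM in Sham. MI 3 was the lowest of its group but still above all Sham libraries. The difference was 1.23 ± 0.31 on the log2 scale (edgeR adjusted p = 0.078). Chil3 had 7989, 4205 and 5648 CPM in MI, against 2734, 2268 and 2342 CPM in Sham (1.28 ± 0.39, edgeR adjusted p = 0.12). Here MI 2, not MI 3, was lowest in its group, and the highest library of all was Sham-E 1 at 9136 CPM.

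Hp and Anxa1 had like differences. Hp had 1942, 1765 and 1489.7 CPM in MI, against 906, 801 and 650 CPM in Sham (1.14 ± 0.32, edgeR adjusted p = 0.099). Anxa1 had 2697, 3126 and 2367 CPM in MI, against 1367, 1177 and 1161 CPM in Sham (1.14 ± 0.29, edgeR adjusted p = 0.075). Both genes separated the groups by more than the spread within either, though not past the adjusted threshold. Without Sham-E 1, Lcn2, Chil3, Hp and Anxa1 passed, at edgeR adjusted p of 0.01, 0.0071, 0.0047 and 0.0052. These were the lowest values with 1 library left out. The highest, without Sham 4, were 0.29, 0.33, 0.32 and 0.27.

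Cd177 and Olfm4 differed less. Cd177 had 1851, 1968 and 1078 CPM in MI, against 974, 1001 and 903 CPM in Sham (0.77 ± 0.30, edgeR adjusted p = 0.18). MI 3 lay only just above the highest Sham library. Olfm4 had 174, 223 and 158 CPM in MI, against 146, 113 and 112 CPM in Sham (0.58 ± 0.25, edgeR adjusted p = 0.22).

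The 3 chromosome 9 genes overlapped between the groups. Ngp had 12938, 9884 and 8027 CPM in MI, against 7869, 8128 and 6970.1 CPM in Sham (0.43 ± 0.25, edgeR adjusted p = 0.36). Camp had 3743, 2829 and 2083 CPM in MI, against 2235, 2543 and 2004 CPM in Sham (0.35 ± 0.23, edgeR adjusted p = 0.41). In both genes MI 3 fell within the Sham range. Ltf had 6536, 8215 and 2337 CPM in MI, against 4850.2, 4964 and 4116 CPM in Sham, so that MI held both the highest and the lowest library of all 12. Its log2 fold change was 0.29 ± 0.37 (edgeR adjusted p = 0.69), 0.67 without MI 3 and -0.07 without MI 2.

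**Figure D2:**
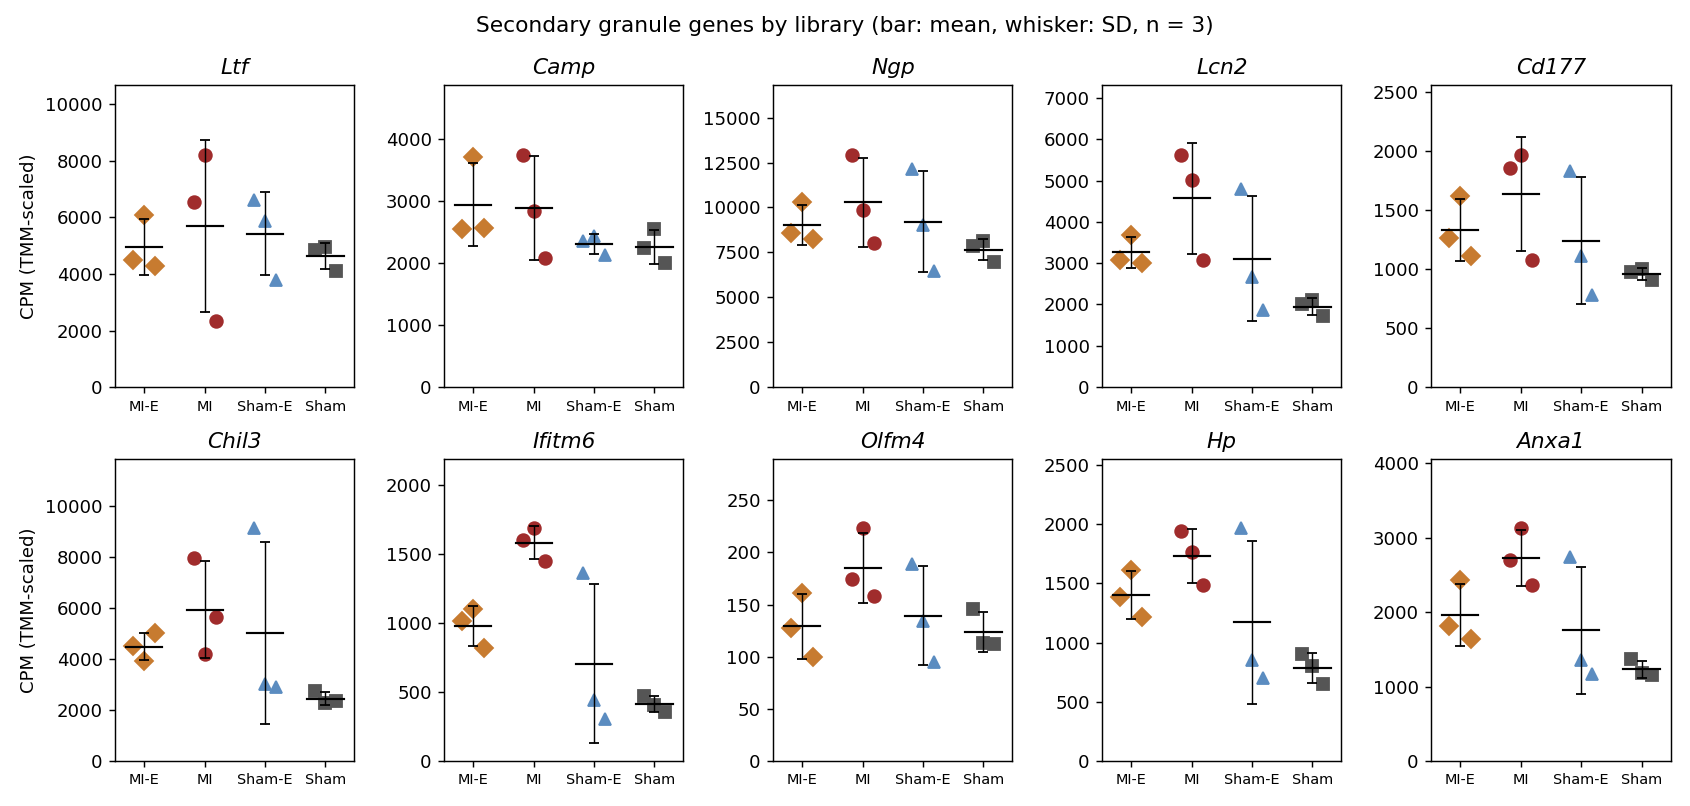
CPM (TMM-scaled, y axis from 0) of each gene in every library, by group on the x axis; points are libraries, bars group means and whiskers SD (n = 3). Ifitm6, Hp and Anxa1 in MI lie wholly above Sham, whereas for Ltf the MI libraries run from 2337 to 8215 CPM around the Sham libraries, and Sham-E 1 is the highest library of all for Chil3 and Hp.

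The size of the Ltf difference depended on the deposited scale. In TPM it had 6154, 8087 and 2356 in MI, against 2700.3, 2775 and 2579 in Sham, with a log2 fold change of 0.87 (limma trend on log2(TPM + 1), adjusted p = 0.21) where the counts gave 0.29. Dividing counts by TPM, with scaling and the insert added back, gives a mean length of the gene's transcripts. Each transcript is weighted by its TPM as RSEM estimated it, not by its reads. The value therefore does not say how many reads fell on shorter transcripts. For Ltf this implied length was 2086 to 2262 nt in MI-E, 1366 to 1441 nt in MI, 1848 to 2204 nt in Sham-E and 2221 to 2542 nt in Sham. The longest annotated Ltf transcript has 2743 nt, and the shortest 233 nt, which is below the mean insert of every library (262.3 to 285.9 bp). The mean was 1401 ± 37.6 nt in MI and 2411 ± 168 nt in Sham (SD, n = 3). The exact two-sided permutation p was 0.1, the smallest that 3 against 3 libraries allow. MI-E also lay wholly above MI, and Sham-E wholly below Sham (exact permutation p = 0.1 each). MI-E and Sham-E overlapped (exact permutation p = 0.3). MI 3, the library with the fewest Ltf counts, was at 1366 nt, the lower end of the MI range.

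Among 5213 genes with at least 500 counts and 10 TPM in every library, the median ratio of implied length, MI over Sham, was 1.000. The ratio was 0.581 for Ltf, the fourth lowest, and 8.21% of these genes had a ratio under 0.9. In 5.81% the ratio was under 0.9 and every MI library also lay below every Sham library, as for Ltf. Lengths of the other members varied little. Camp and Ngp stayed at 758 and 1222 nt in all libraries, their single annotated lengths, and Cd177 ran from 2641 to 2681 nt. A shorter insert in the MI libraries moves with this value, and its part in it was not tested.

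**Figure D3:**
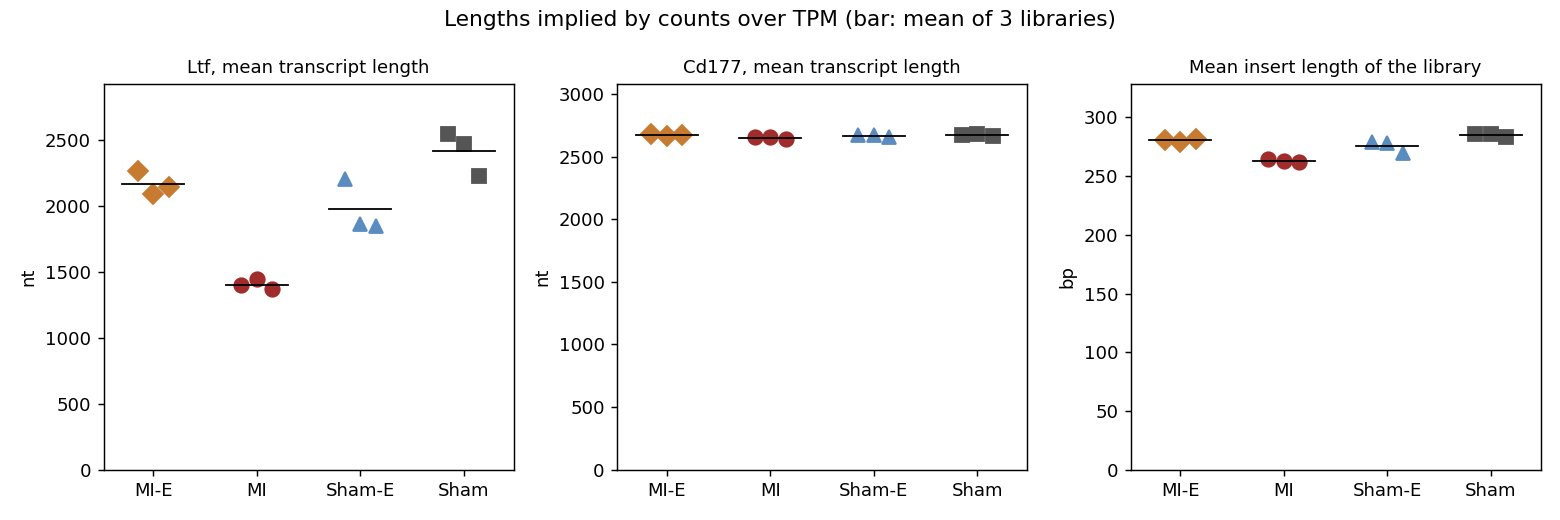
Mean transcript length (nt) implied by counts over TPM for Ltf (left) and Cd177 (middle), and mean insert length (bp) of each library (right), by group; points are libraries and bars means of 3. Ltf lies at 1366 to 1441 nt in MI and at 2221 to 2542 nt in Sham, Cd177 at 2641 to 2681 nt throughout, and inserts are shortest in MI (262.3 to 264.2 bp).

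The members also differed in their proportions. Set against the mean of the other 9 members and centred over the 12 libraries, log2 CPM of Ifitm6 was 0.44, 0.62 and 0.94 in MI, against -0.42, -0.56 and -0.59 in Sham. Ngp ran the other way, at -0.13, -0.46 and -0.23 in MI, against 0.17, 0.33 and 0.27 in Sham. Ltf reached -1.27 in MI 3. Camp stood at -0.12, -0.46 and -0.39 in MI, against 0.16, 0.46 and 0.28 in Sham, and at -0.77 in Sham-E 1. Cd177 kept close to the set, within -0.29 and 0.16 in all 12 libraries.

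MI-E was compared with MI to ask what EMPA changed after infarction. Every member but Camp had a negative difference, where 47.6% of all genes were positive, with a median of -0.36, against -0.02 over all genes, and 0 of 10 passed edgeR, where 0.00661% of all genes passed. None had an unadjusted p under 0.05 either, against 17.4% of all genes, and DESeq2 also called 0. Ifitm6 alone had no overlap, with 1011, 1098 and 815 CPM in MI-E, against 1604, 1685 and 1449.7 CPM in MI (-0.70 ± 0.42 in log2, adjusted p = 0.41 by edgeR); 10.1% of all genes lay lower in this way. Olfm4 had 127, 161 and 99.3 CPM in MI-E, against 174, 223 and 158 CPM in MI (-0.52 ± 0.25, edgeR adjusted p = 0.30), and MI-E 3 reached into the MI range. The log2 differences of Lcn2 (-0.49 ± 0.31), Anxa1 (-0.48 ± 0.28), Chil3 (-0.41 ± 0.39), Cd177 (-0.30 ± 0.30) and Hp (-0.30 ± 0.32) did not pass either (edgeR adjusted p from 0.40 to 0.65). Ltf (-0.20 ± 0.37), Ngp (-0.19 ± 0.25) and Camp (0.02 ± 0.23) differed by less than their standard errors, and the sign of each turned when 1 library was left out.

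MI-E and Sham differ in operation and drug. All 10 members had a positive difference on counts, Olfm4 a negative one on TPM (-0.17 with a pseudocount of 1), where 52.4% of all genes were positive on counts, with a median of 0.57, against 0.02 over all genes, and 7 members had no overlap, where 19.0% of all genes lay higher in this way. No member passed edgeR (0 of 10, against 0.00% of all genes, with 13.7% of genes and 5 members at an unadjusted p under 0.05). DESeq2 called no member and 174 genes, while a fit to these 2 groups alone called 5 members and 2192 genes. Ifitm6 had a mean of 975 ± 145 CPM in MI-E and 410.1 ± 59.2 CPM in Sham (SD, n = 3; log2 1.25 ± 0.43, edgeR adjusted p = 0.28). The log2 difference was 0.87 ± 0.39 for Chil3, 0.84 ± 0.32 for Hp, 0.74 ± 0.31 for Lcn2 and 0.67 ± 0.28 for Anxa1 (edgeR adjusted p from 0.31 to 0.35). These levels in MI-E lay between those of MI and Sham. Ltf (0.09 ± 0.37) and Olfm4 (0.06 ± 0.25) stood near 0. Since MI-E against MI, MI against Sham and MI-E against Sham share libraries, their values are set side by side and are not independent.

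Sham-E was compared with Sham to ask what EMPA changed without infarction. The Sham-E libraries were more scattered than the Sham libraries for every member but Camp. All 10 differences were positive on counts, with Camp at 0 on TPM, where 52.5% of all genes were positive on counts (median 0.44, against 0.01 over all genes), and 0 of 10 passed edgeR, where 0.00% of all genes passed. DESeq2 called none of the members either, and 2 members had an unadjusted p under 0.05, against 1.90% of all genes. Chil3, the member without overlap (4.52% of all genes lay higher in this way), had 9136, 3025 and 2905 CPM in Sham-E, against 2734, 2268 and 2342 CPM in Sham (1.04 ± 0.39, edgeR adjusted p = 1). The differences rested mainly on Sham-E 1: without it the difference was 0.28 for Chil3, 0.22 for Lcn2, 0.03 for Anxa1, -0.02 for Hp and -0.14 for Ifitm6. Sham-E 2 and Sham-E 3 lay within the Sham range for Hp and Anxa1, and both above it for Chil3. For Lcn2, Sham-E 2 lay above it, at 2667 CPM against at most 2098 CPM in Sham. For Ifitm6, Sham-E 3 lay below it, at 306 CPM against at least 354 CPM in Sham.

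MI-E against Sham-E, the effect of infarction under EMPA, gave log2 differences from -0.16 ± 0.39 for Chil3 to 0.47 ± 0.42 for Ifitm6. On counts 6 of 10 were positive, as were 50.4% of all genes, and 0 of 10 passed edgeR, where 0.00% of all genes passed and 13.4% had an unadjusted p under 0.05; DESeq2 called no member. Camp alone had no overlap, with 2539, 3706 and 2557 CPM in MI-E, against 2356, 2439 and 2132 CPM in Sham-E (0.35 ± 0.23, edgeR adjusted p = 0.51); 11.7% of all genes lay higher in this way. Without Sham-E 1 the difference of Ifitm6 was 1.39 (edgeR adjusted p = 0.014), and that of Hp 0.86. In that fit 1 member and 117 genes passed.

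The interaction asks whether EMPA's difference after infarction (MI-E against MI) was unlike its difference after the sham operation (Sham-E against Sham), as one minus the other. It was negative for all 10 members on counts, where 47.0% of all genes were positive, with Camp at 0.02 on TPM. It was -1.47 ± 0.60 for Ifitm6, -1.44 ± 0.55 for Chil3, -1.17 ± 0.44 for Lcn2 and -0.98 ± 0.40 for Anxa1 (log2 ± SE, edgeR adjusted p from 0.31 to 0.34). These 4 of the 10 had an unadjusted p under 0.05, against 13.5% of all genes. None of the 10 passed after adjustment, where 0.00661% of all genes passed; DESeq2 and limma called 0 members. Without Sham-E 1 these 4 values were -0.55, -0.68, -0.71 and -0.51.

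**Figure D4:**
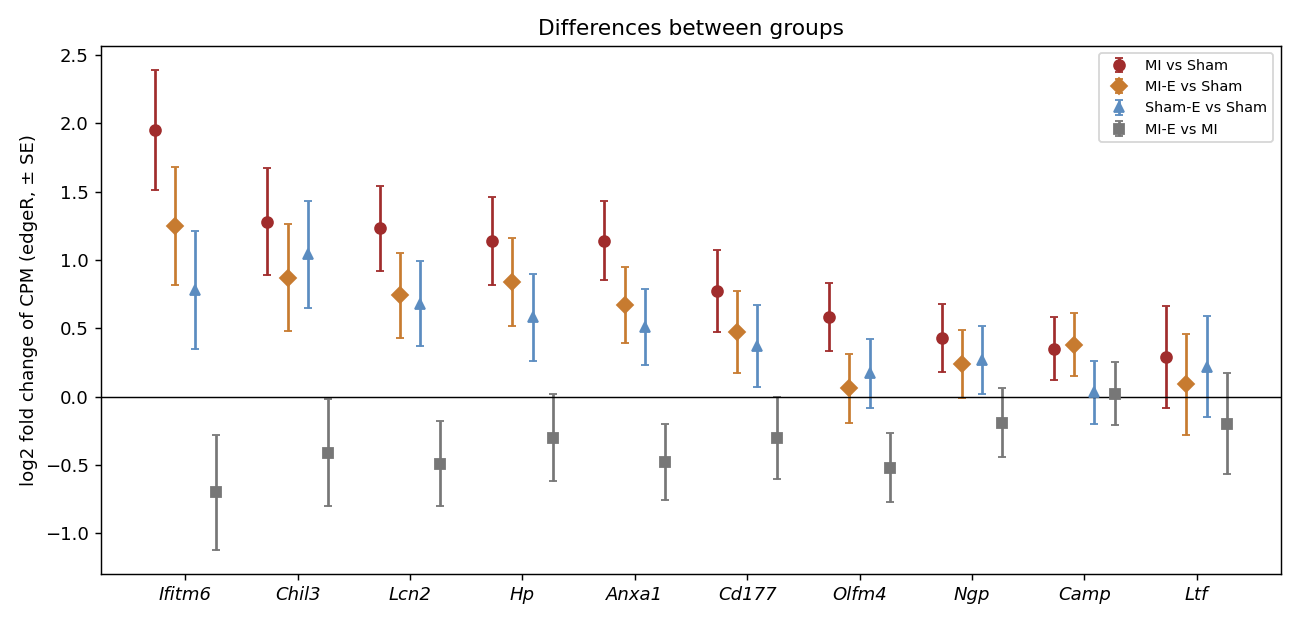
Log2 fold change of CPM (edgeR, points ± SE) of each gene in 4 comparisons, ordered by MI vs Sham on the x axis. MI vs Sham falls in size from 1.95 for Ifitm6 to 0.29 for Ltf, MI-E vs Sham lies below it except for Camp, and MI-E vs MI lies at or below 0 except for Camp.

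The group order by mean CPM was MI, MI-E, Sham-E, Sham for Lcn2, Cd177, Ifitm6, Hp and Anxa1, and MI, Sham-E, MI-E, Sham for Ltf, Ngp, Chil3 and Olfm4. Camp alone had its highest mean in MI-E (2934 ± 669 CPM, against 2885 ± 831 CPM in MI). Sham was lowest for all 10. Sham-E overlapped MI-E in 9 members and Sham in 9, so that the place of Sham-E between them is not settled by these libraries.

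Other genes of secondary granules, gelatinase granules and granule membranes were read from a list chosen with earlier results of these data known. Of 17 tested rows for these 16 genes, 0 passed edgeR in MI against Sham, against 0.417% of all genes. At an unadjusted p under 0.05 there were 8, against 19.5% of all genes. Of the 17 rows, 16 were positive, against 52.4% of all genes, with a median of 0.51 (all genes 0.02). Retnlg, a resistin-like protein of neutrophils, had 1680 CPM in MI and 851 CPM in Sham on average (log2 0.98 ± 0.21, edgeR adjusted p = 0.057), and the collagenase gene Mmp8 had 1339.8 and 774 CPM (0.79 ± 0.23, 0.10). In MI-E against MI the median of this list was -0.23 and 3 of the 17 rows were positive, against 47.6% of all genes.

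The transcription factors of the lineage were read in the same way. Of 8 granulocyte factors, 0 passed in MI against Sham, against 0.417% of all genes. An unadjusted p under 0.05 was found for 1, against 19.5% of all genes, and the median was 0.13. Cebpe, which encodes C/EBPε, had 144 CPM in MI and 136 CPM in Sham (0.08 ± 0.32, edgeR adjusted p = 0.92), and Gfi1, a repressor needed for granulocyte maturation, had 37.6 and 41.7 CPM (-0.15 ± 0.32, 0.83); both were picked after their values were seen. Runx1 was at -0.30 ± 0.11 (0.15) and Spi1, which encodes PU.1, at 0.44 ± 0.22 (0.29). Of 8 early precursor and primary granule genes, 7 were tested, and Bpi did not pass the filter. The median of the 7 was -0.21 in MI against Sham. Of these, 0 were called, against 0.417% of all genes, and 0 had an unadjusted p under 0.05, against 19.5%. Mpo, the myeloperoxidase gene, had 1469 CPM in MI and 1895 CPM in Sham (-0.37 ± 0.33, edgeR adjusted p = 0.57). Ctsg, cathepsin G, had 274 and 196 CPM (0.49 ± 0.46, 0.59).

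Mature neutrophil genes, a list also chosen with earlier results of these data known, included 3 of 14 that rose in MI against Sham. Of all genes, 0.417% passed in either direction. Because of that choice, the 2 shares do not test the list. The 3 were Wfdc21 (1.76 ± 0.23, edgeR adjusted p = 0.016), Fpr2 (1.18 ± 0.20, 0.035) and Fpr1 (0.84 ± 0.15, 0.038). Of the 14, 10 were positive, against 52.4% of all genes, and the list's median was 0.36. Il1b (-1.56 ± 0.85, edgeR adjusted p = 0.33) and Csf3r (-0.53 ± 0.30, 0.34) were the most negative. S100a8 and S100a9, the calprotectin genes, picked after their values were seen, had 12524 and 13488 CPM in MI and 10162 and 10817 CPM in Sham, with differences of 0.30 ± 0.28 and 0.32 ± 0.27 (edgeR adjusted p = 0.58 and 0.54).

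Monocyte markers were set beside the members that monocytes share. This list and those below were also chosen with earlier results of these data known. Of 9 monocyte genes tested in MI against Sham, 7 were positive, against 52.4% of all genes. At an unadjusted p under 0.05 there were 4, against 19.5%, and 0 were called, against 0.417%. The 9 monocyte genes had a median of 0.36, and none was at 0 in any group. Their summed level was 3619 to 4064 CPM in MI-E, 3394 to 5206 CPM in MI, 2526 to 5862 CPM in Sham-E and 2484 to 2898 CPM in Sham, and every MI-E and MI library lay above Sham. Ms4a6c was at 0.77 ± 0.20 (edgeR adjusted p = 0.081) and the patrolling monocyte receptor gene Cx3cr1 at -1.37 ± 0.35 (0.082). Their part in the levels of Chil3, Ifitm6, Hp and Anxa1 was not tested. B-lineage markers summed to 1588 to 1934 CPM in MI-E, 1350 to 1791 CPM in MI, 994 to 2629.8 CPM in Sham-E and 2191 to 3190.3 CPM in Sham. Their median was -1.10 in MI against Sham. Of the 10, 0 were called, against 0.417% of all genes, and 5 had an unadjusted p under 0.05, against 19.5%. Stroma and bone markers had a median of -2.35 in MI against Sham. Of the 6, 0 were positive (52.4% of all genes), 4 had an unadjusted p under 0.05 (19.5%) and 1 passed edgeR (0.417%). Of the 6, Bglap (osteocalcin) fell (-3.47 ± 0.62, edgeR adjusted p = 0.037), at low means of 0.312 CPM in MI and 3.51 CPM in Sham. The summed level of these markers was 212 to 348 CPM in MI-E, 93.6 to 161 CPM in MI, 71.6 to 315 CPM in Sham-E and 169.5 to 296 CPM in Sham. Cxcl12 was the largest part of this sum, with means of 253 CPM in MI-E and 125 CPM in Sham. In MI-E against Sham the list's median was -1.23. Of the 6, 2 were positive (Cxcl12 at 1.02 ± 0.52 among them), against 52.4% of all genes, and none was called, against 0.00%. Col1a1 averaged 8.05 CPM in MI-E and 56.7 CPM in Sham. Of 8 cell cycle genes in MI against Sham, 1 was positive (52.4% of all genes) and 0 were called (0.417%). At an unadjusted p under 0.05 there were 4 (19.5% of all genes). The cell cycle genes had a median of -0.37. They summed to 3365 to 4497 CPM in MI-E, 2829.7 to 3314 CPM in MI, 2997 to 4665 CPM in Sham-E and 3565 to 4309.9 CPM in Sham. The part of these cells in the members' levels was not tested. In the remaining lists no gene passed in MI against Sham, where 0.417% of all genes passed. The medians of these lists ran from -0.79 for skeletal muscle to 0.23 for macrophages.

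The 8 other genes whose centred log2 CPM over the 12 libraries lay nearest to the mean profile of the members were Prelid1, Siglece, Glipr2, Pglyrp1, Myd88, Dbi, Mcemp1 and Pygl, with root mean square differences of 0.0839 to 0.132, where the profile itself spanned 1.28. Pglyrp1 encodes a peptidoglycan-binding granule protein, Siglece an inhibitory receptor for sialic acids, Myd88 the adaptor of Toll-like receptors and Pygl a glycogen phosphorylase. Pglyrp1 averaged 608 CPM in MI-E, 781 CPM in MI, 574 CPM in Sham-E and 428 CPM in Sham. Of the members, Cd177 (0.107) and Lcn2 (0.137) lay nearest to their common profile and Ifitm6 (0.497) and Ltf (0.423) farthest from it.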

How the data were processed

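Total RNA of mouse bone marrow was sequenced in 12 libraries. The authors deposited a table of estimated counts per gene and a table of TPM, made on mm10 with RSEM, STAR 2.4.0j and CASAVA 1.8 per the submitters' processing notes, which give no parameters. The deposited estimated counts are whole numbers, which hides how reads shared between genes were split, and strand use is not given in the sources used here. The deposited TPM values have the same sum in every library, so abundant genes lower all others. Columns of Sham and MI-E carry numbers that differ from the sample titles and were assigned to their group only.

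Counts were fitted with edgeR 4.0.16 in R 4.3.3 (quasi-likelihood, robust, TMM scaling, filterByExpr) over all 12 libraries with 1 mean per group and 8 residual degrees of freedom, and p-values were adjusted by Benjamini-Hochberg over 15119 genes with a threshold of 0.05. TMM-scaled CPM are shown, and the step was tested on simulated data. DESeq2 1.42.0, limma 3.58.1 on log2(TPM + 1) and log2(TPM + 0.1), other scalings, no filter, the 2 groups alone and each library left out were alternatives. Implied transcript length was count over TPM, scaled per library on single-transcript genes with the insert added back, assuming RSEM's effective length. Named from each list were genes past the threshold or, where none passed, up to 2 with the smallest p. Members and lists were chosen with earlier results of these data known. Depth was 21175087 to 24606783 counts.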

Additional observations from a re-analysis of the deposited data

How the results depend on the processing

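No paired analysis was possible because every comparison includes Sham or MI-E, whose columns carry numbers other than those of the sample titles. The titles number each group 1 to 3, but these columns could not be tied to titled replicates, and a number shared between column names was not taken as a pairing. In MI against Sham, where edgeR called 0 members and 63 genes, DESeq2 called 5 members and 1066 genes, limma on log2(TPM + 0.1) 1 and 269, and the fit to the 2 groups alone 4 and 344; limma on log2(TPM + 1) called 282 genes and no filter 156. In MI-E against MI (1 gene) these were 577 genes by DESeq2, 50 and 67 by limma with pseudocounts of 1 and 0.1, 3 in the 2 groups alone and 33 without the filter. In MI-E against Sham (0 genes) the 2 groups alone gave 5 members and 2192 genes, DESeq2 174 genes, no filter 3 and limma on log2(TPM + 1) 1. DESeq2 called 2 genes in Sham-E against Sham and 212 in MI-E against Sham-E, where edgeR called 0, and 167 in the interaction, where edgeR called 1 and limma 7 and 14.

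Leaving out each library in turn gave 0 to 5 members and 1 to 1224 genes in MI against Sham, 0 to 2 and 0 to 250 in MI-E against Sham, 0 to 1 and 0 to 117 in MI-E against Sham-E, 1 to 988 genes in MI-E against MI and 1 to 150 in the interaction. The highest counts came without Sham-E 1, or without MI 1 for MI-E against MI and the interaction. Members without overlap were 7 to 10 in MI against Sham and 7 to 8 in MI-E against Sham, alternatives chosen after seeing the data.

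On TPM the median of all genes lay lower by -0.167 to -0.225 in MI against Sham and in MI-E against either sham group. Turned in sign there were Camp in Sham-E against Sham (0) and in the interaction (0.02), Lcn2 (-0.03) and Cd177 (-0.04) in MI-E against Sham-E, and Olfm4 in MI-E against Sham (-0.17 and -0.18 with pseudocounts of 1 and 0.1). With 1 library left out, these log2 differences turned in sign. In MI against Sham, Ltf ran from -0.07 to 0.67. In MI-E against MI, Ltf ran from -0.57 to 0.16, Camp from -0.18 to 0.26 and Ngp from -0.34 to 0.01. In Sham-E against Sham, Camp ran from -0.05 to 0.12, Cd177 from -0.02 to 0.61, Ifitm6 from -0.14 to 1.14, Olfm4 from -0.11 to 0.38 and Hp from -0.02 to 0.84. In MI-E against Sham-E, Ltf ran from -0.33 to 0.04, Ngp from -0.23 to 0.22, Lcn2 from -0.20 to 0.52, Cd177 from -0.15 to 0.49, Chil3 from -0.44 to 0.60, Olfm4 from -0.32 to 0.17, Hp from 0 to 0.86 and Anxa1 from -0.06 to 0.63. In MI-E against Sham, Ltf ran from -0.08 to 0.19 and Olfm4 from -0.13 to 0.22, and in the interaction Camp ran from -0.21 to 0.23. The cause was not tested. Depth was not varied.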
